A study of Caenorhabditis elegans with 8 samples.

Results

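The caenacins are a class of short peptide genes of Caenorhabditis elegans, and 9 of them are described here: cnc-1, cnc-2, cnc-3, cnc-4, cnc-5, cnc-6, cnc-7, cnc-10 and cnc-11. They were picked by gene symbol out of the 46739 genes listed in each count table, by a rule that uses no measured value, though earlier results of these data were known when the class was chosen. RNA was sequenced from whole worms treated with 5-Ph-IAA (4 libraries) or with ethanol (4 libraries). All libraries came from 1 genotype, a neuronal DAF-15 AID worm, so the control worms carry the degron too. DAF-15 is the worm form of Raptor, which belongs to the kinase complex TORC1. AID stands for an auxin-inducible degron, a tag through which a plant F-box protein sends its target to the proteasome once an auxin such as 5-Ph-IAA is present. The sources used here give neither the promoter that drives the F-box protein nor the dose of 5-Ph-IAA. Worms grew on OP50 bacteria, received either treatment for 24 h starting as L4 larvae, and gave RNA as adults of day 1. The comparison asks how the treatment aimed at DAF-15 in neurons left these transcripts in the whole animal, and no library separates the compound from the loss of DAF-15.

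Caenacins are secreted peptides rich in glycine and aromatic residues, made mainly in the epidermis and counted among the antimicrobial peptides of the worm. After infection with the fungus Drechmeria coniospora, cnc-2 is known to be raised in the epidermis through DBL-1, a TGF-beta ligand made by neurons. That signal passes through the receptor SMA-6 and the SMAD protein SMA-3 of the epidermal cells. Another class of epidermal peptides, that of nlp-29, is instead driven by a p38 kinase cascade that ends in the factor STA-2. In whole-worm RNA, fewer epidermal cells and less RNA per cell cannot be told apart.

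All 9 genes are annotated as protein-coding in Ensembl release 115 (WBcel235), and each has 2 exons in every annotated transcript. A cluster on chromosome V, between positions 1442342 and 1450183, holds 6 of them within 7.842 kb and no other annotated gene. Along it lie cnc-11 (1442342 to 1442917, plus strand), cnc-1 (1444044 to 1444280, minus strand), cnc-5 (1445381 to 1445832, plus strand), cnc-4 (1447195 to 1447707, plus strand), cnc-3 (1448004 to 1448792, plus strand) and cnc-2 (1449665 to 1450183, minus strand). The remaining members stand apart from it. On the same chromosome, cnc-10 lies at 11183225 to 11183643 and cnc-7 at 20394073 to 20394735, both on the plus strand. On chromosome III, cnc-6 lies at 1763522 to 1764902, also on the plus strand. The annotated coding sequences give peptides from 51 residues for cnc-11 to 98 residues for cnc-6. The introns run from 48 bases in cnc-1 and cnc-10 to 919 bases in cnc-6. For cnc-1 and cnc-5 the annotated exons hold coding bases only, which makes them the shortest, at 189 and 207 bases.

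The libraries held between 7354710 and 10893322 reads in genes, of which 219 to 448 fell in the 9 caenacin genes. Values are CPM (counts per 1000000 reads in tested genes, with library sizes scaled by TMM factors, which set the bulk of genes level between libraries), as mean ± SD with n = 4 per group. Transcripts of the targeted gene stood at 119.1 ± 6.20 CPM with 5-Ph-IAA and 121.1 ± 6.89 CPM with ethanol, but degradation acts on the protein, so daf-15 does not check the treatment. The tissue marker lists were all present, with 0 markers lacking reads. Markers of the epidermis, where the caenacins are made, summed to between 10257 and 13410.3 CPM with 5-Ph-IAA and between 11889 and 13207 CPM with ethanol, and of 17 tested markers of 24 none passed the threshold in edgeR, without or with the replicate block. Summed neuronal markers (6 of 6 tested, none past the threshold) ranged from 324.6 to 342.1 CPM with 5-Ph-IAA and from 330.5 to 343.4 CPM with ethanol. Their part in the results below was not tested.

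Without a block for the replicate number, 0 of the 5 caenacin genes that could be tested passed an adjusted p of 0.05 in edgeR's quasi-likelihood test, adjusted over all 12021 tested genes. Of all tested genes 0.0998% passed in either direction. An unadjusted p under 0.05 was reached by 3 of the 5 (cnc-2, cnc-4 and cnc-6), against 4.41% of all tested genes. With the replicate number as a block, 1 passed, cnc-6, where 0.474% of all tested genes were called higher. The numbers were taken to pair the libraries, by a bar narrowly met, and the fit with the block is the one that follows this pairing. DESeq2 called the same gene without and with the block (0.191% and 0.158% of all tested genes higher). The 5 log2 fold changes ran from -0.16 to 2.09 with a median of 0.46, and the median of all tested genes was -0.00094. The values of the groups overlapped for each of the 5, where 2.65% of all tested genes did not overlap. The 4 members below the filter on low counts were cnc-1, cnc-5, cnc-7 and cnc-11. A gene needed 1.21 CPM in at least 4 libraries, and cnc-6 reached that in 4 of 4 5-Ph-IAA libraries and 1 of 4 ethanol libraries, so it was tested because of its level with 5-Ph-IAA. The 5 therefore do not stand for all 9. The class was also chosen with earlier results known, so the 3 of 5 beside 4.41% give no support of their own.

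**Figure D1:**
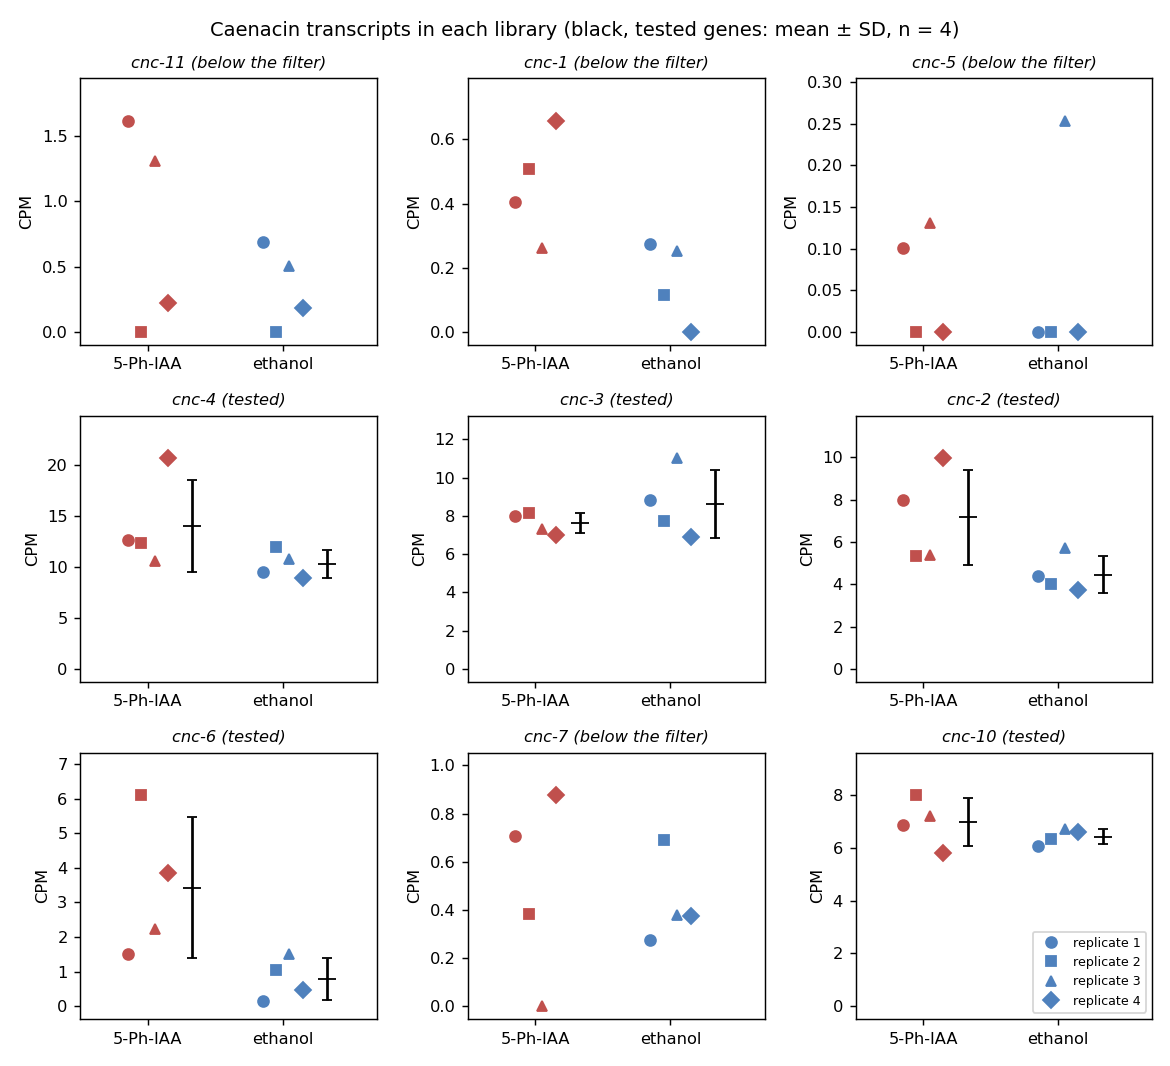
CPM of each caenacin gene in the 4 5-Ph-IAA libraries (left, red) and the 4 ethanol libraries (right, blue), with 1 symbol shape per replicate number. Black bars give mean ± SD for the 5 tested genes, each panel has its own CPM axis, and cnc-6 with 5-Ph-IAA lies between 1.52 and 6.10 CPM against 0.138 to 1.52 CPM with ethanol.

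In the cluster, 3 genes could be tested. The gene cnc-2, the member best known from fungal infection, had 7.99, 5.34, 5.37 and 9.98 CPM in 5-Ph-IAA replicates 1 to 4, against 4.41, 4.03, 5.71 and 3.73 CPM in ethanol replicates 1 to 4. The groups overlapped through ethanol replicate 3, which stood above 5-Ph-IAA replicates 2 and 3. Mean levels were 7.17 ± 2.25 CPM with 5-Ph-IAA and 4.47 ± 0.871 CPM with ethanol. The fitted fold of 1.63 (log2 0.71, SE 0.22) missed the threshold without the block (edgeR adjusted p = 0.669). With the block and all libraries cnc-2 missed it too (log2 0.69, SE 0.21, edgeR adjusted p = 0.156). Of the 4 numbered pairs, 3 were higher with 5-Ph-IAA, and pair 3 was not. With the block and without pair 3 cnc-2 was past the threshold (log2 0.93, edgeR adjusted p = 0.0370), while with the block and without pair 4 the log2 fold change was 0.40 (edgeR adjusted p = 0.830).

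Its neighbour cnc-3 did not differ beyond its spread. It had 7.99, 8.14, 7.34 and 7.02 CPM in 5-Ph-IAA replicates 1 to 4, against 8.82, 7.71, 11.03 and 6.90 CPM in ethanol replicates 1 to 4. All 5-Ph-IAA values lay inside the range of the ethanol values. On the log2 scale the fold change of cnc-3 was -0.16 (SE 0.17, edgeR adjusted p = 0.999), the only one of the 5 below 0. With the block it was -0.16 (SE 0.16, edgeR adjusted p = 0.956). The spread of cnc-3 over the 5-Ph-IAA libraries, a coefficient of variation of 6.96%, was below the 12.3% that counting alone gives at this depth.

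On the other side of cnc-3 lies cnc-4, which of the 9 had the most reads in each group. It had 12.6, 12.3, 10.6 and 20.7 CPM in 5-Ph-IAA replicates 1 to 4, against 9.51, 11.96, 10.78 and 8.95 CPM in ethanol replicates 1 to 4. The difference rested on 5-Ph-IAA replicate 4, the highest of the 8 libraries. Means of 14.1 ± 4.52 CPM with 5-Ph-IAA and 10.3 ± 1.34 CPM with ethanol went with a fitted fold of 1.38 (log2 0.46, SE 0.18, edgeR adjusted p = 0.999), and without 5-Ph-IAA replicate 4 the log2 fold change was 0.21. In the 5-Ph-IAA libraries cnc-2 and cnc-4 varied by 31.4% and 32.1%, where counting alone gives 12.6% and 9.02%. The same library, 5-Ph-IAA replicate 4, was the highest of its group for cnc-2 and cnc-4. It was the lowest for cnc-3, which lies between them, but the spread of cnc-3 in this group was below counting error. Its highest library, replicate 2, and its lowest, replicate 4, held the same 64 reads.

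**Figure D2:**
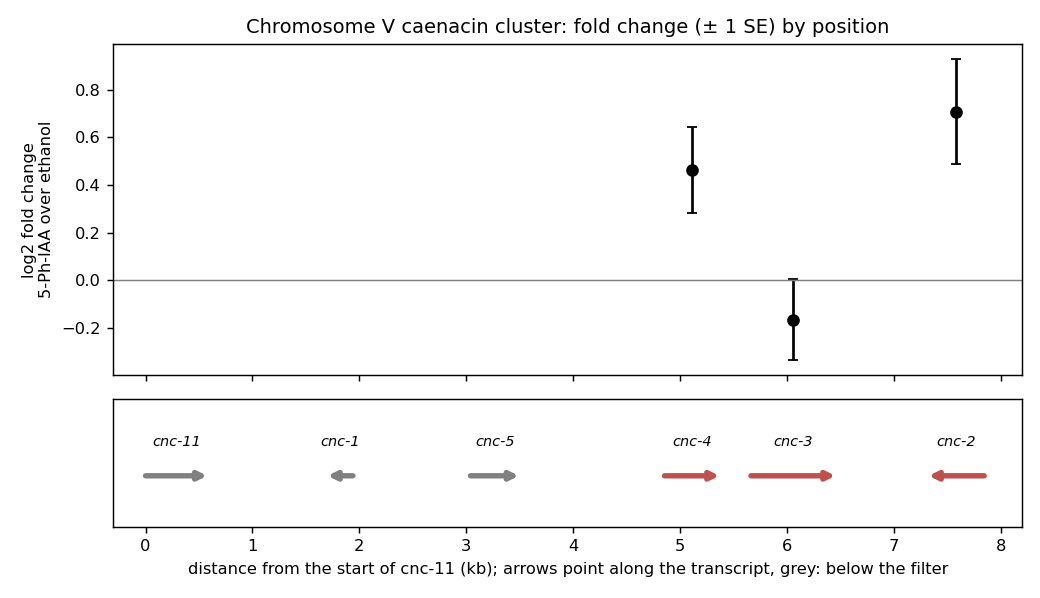
Log2 fold change (5-Ph-IAA over ethanol, points with bars of 1 SE) of the tested genes of the chromosome V cluster, above a scale map of the cluster in kb from the start of cnc-11, with arrows along each transcript and genes below the filter in grey. From left to right cnc-4 stands at 0.46, cnc-3 at -0.16 and cnc-2 at 0.71.

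Dividing the reads of one gene by those of another in the same library removes the library's depth and scaling. For each read of cnc-3 there were 1.0, 0.656, 0.732 and 1.42 reads of cnc-2 in 5-Ph-IAA replicates 1 to 4, against 0.500, 0.522, 0.517 and 0.541 in ethanol replicates 1 to 4. Every 5-Ph-IAA library lay above every ethanol library, so the groups did not overlap. The ethanol ratios lay closer together than counting allows for. In that group counting alone gives a coefficient of variation of 16.2% for cnc-2 and 11.7% for cnc-3. Their small spread therefore does not measure how well the groups are separated. Means were 0.953 ± 0.346 with 5-Ph-IAA and 0.520 ± 0.0167 with ethanol. The same ratio of cnc-4 to cnc-3 was 1.58, 1.52, 1.45 and 2.95 in 5-Ph-IAA replicates 1 to 4, against 1.08, 1.55, 0.977 and 1.297 in ethanol replicates 1 to 4. Here ethanol replicate 2 reached into the 5-Ph-IAA range. Of the 10 ratios among the 5 tested members 2 did not overlap between groups, that of cnc-2 to cnc-3 and that of cnc-3 to cnc-6 (1.33 to 5.27 with 5-Ph-IAA and 7.25 to 64 with ethanol, where 64 rests on 1 read of cnc-6). Of all other tested genes, 1.89% had a ratio to cnc-3 that was higher in every 5-Ph-IAA library than in every ethanol library. That share covers ratios to cnc-3 only, so the count of 2 among 10 has no matching share beside it. Both of the 2 ratios hold cnc-3 and are not independent. The ratios were chosen after the values were seen and were given no test.

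**Figure D3:**
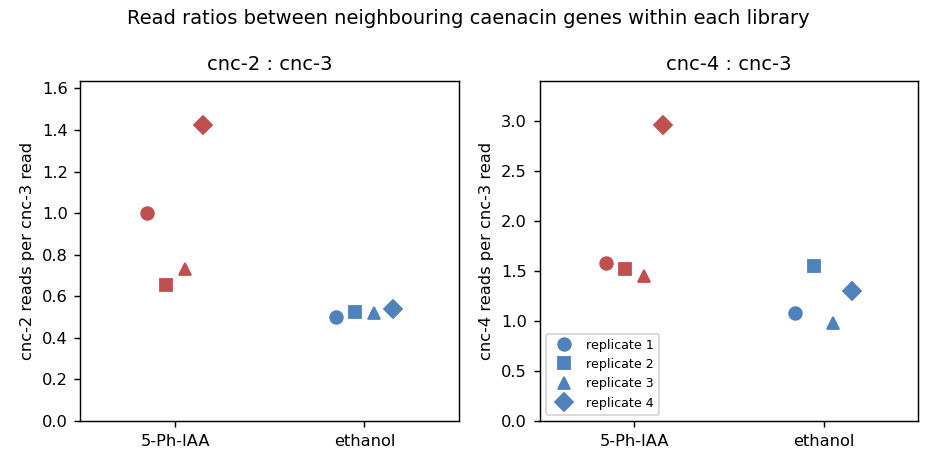
Reads of cnc-2 (left panel) and cnc-4 (right panel) per read of cnc-3 in each library, with 5-Ph-IAA left of ethanol and 1 symbol shape per replicate number. The cnc-2 ratio is 0.656 to 1.42 in the 5-Ph-IAA libraries and 0.500 to 0.541 in the ethanol libraries, while the cnc-4 ratios overlap.

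The other 3 genes of the cluster were close to the limit of detection and, being below the filter, were not among the 5 tested. A library with no read of a gene allows at most 3 reads, or 0.275 to 0.408 CPM at these depths. Intervals on these sums cover counting error only. From cnc-11, the gene at the edge of the cluster, 16, 0, 10 and 2 reads came from 5-Ph-IAA replicates 1 to 4 and 5, 0, 4 and 2 from ethanol replicates 1 to 4. Summed, that is 28 against 11 reads, a ratio of CPM of 2.56 with a 95% exact counting interval of 1.24 to 5.71, and 2 libraries gave all but 2 of the 28. Over the 5-Ph-IAA libraries cnc-11 varied by 101%, where counting alone gives 37.8%. From cnc-1 there were 4, 4, 2 and 6 reads with 5-Ph-IAA and 2, 1, 2 and 0 with ethanol, a ratio of 3.22 (1.13 to 11.25). In the fits with no filter, neither cnc-11 nor cnc-1 passed. The edgeR adjusted p of each was 0.7925 without the block and 0.958 with it. The number of cnc-5 reads was 2 in each group.

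The caenacin gene furthest from equal levels was cnc-6, alone on chromosome III and coding for the longest of the 9 peptides. It had 1.52, 6.10, 2.23 and 3.84 CPM in 5-Ph-IAA replicates 1 to 4 (15, 48, 17 and 35 reads), against 0.138, 1.035, 1.52 and 0.466 CPM in ethanol replicates 1 to 4 (1, 9, 12 and 5 reads). The lowest 5-Ph-IAA library (replicate 1, 1.518 CPM) and the highest ethanol library (replicate 3, 1.522 CPM) met. Without the TMM factors they stood at 1.545 and 1.512 CPM. All 4 numbered pairs were higher with 5-Ph-IAA, as were 7.17% of tested genes, with log2 differences of 2.24, 2.32, 0.49 and 2.54 in pairs 1 to 4. Means were 3.42 ± 2.03 CPM with 5-Ph-IAA and 0.790 ± 0.612 CPM with ethanol.

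The fitted fold of cnc-6, 4.25 (log2 2.09, SE 0.53), was the 4th highest log2 fold change of the 12021 tested genes. The gene entered that set through its level with 5-Ph-IAA and had 27 ethanol reads in all, so the rank gives no support of its own. In edgeR cnc-6 did not pass without the block (adjusted p = 0.402) and did with it (4.40-fold, log2 2.14, SE 0.38, edgeR adjusted p = 0.000566). DESeq2 called it without the block (adjusted p = 0.0194) and with it (0.0332), and edgeR called it without the block once no filter was set (1.34e-05). Leaving out any 1 library without the block gave log2 fold changes of 1.67 to 2.56, none past the threshold (edgeR adjusted p = 0.0674 to 0.944). With the block the call ended without pair 2 (log2 1.93, edgeR adjusted p = 0.0623), the pair that holds its highest library. The spread of cnc-6 was wide, with coefficients of variation of 59.4% with 5-Ph-IAA and 77.5% with ethanol, where counting alone gives 18.6% and 38.5%. Of the 5-Ph-IAA libraries, replicate 2 was the highest for cnc-6. It was also the highest for cnc-3 (8.14 CPM against 7.99 in replicate 1) and the lowest for cnc-2 (5.34 CPM against 5.37 in replicate 3), both by small margins. Of the ethanol libraries, replicate 3 was the highest for cnc-6, cnc-2 and cnc-3 alike.

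**Figure D4:**
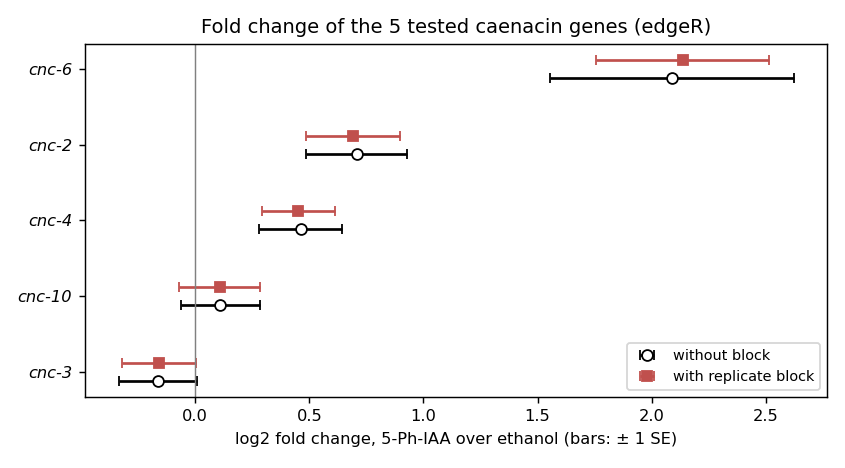
Log2 fold change of the 5 tested caenacin genes, 5-Ph-IAA over ethanol, from edgeR without a block (open circles) and with the replicate number as a block (red squares), with bars of 1 SE. The estimates without and with the block are close for every gene, and the bar of cnc-6 shortens with the block (SE 0.53 without it, 0.38 with it).

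Of the other members outside the cluster, cnc-10 lay near equal levels, and cnc-7, below the filter, had too few reads to tell. The gene cnc-10 had 6.88, 8.01, 7.21 and 5.81 CPM in 5-Ph-IAA replicates 1 to 4, against 6.06, 6.32, 6.72 and 6.62 CPM in ethanol replicates 1 to 4. The 5-Ph-IAA values spanned the ethanol values on both sides. Its means of 6.98 ± 0.910 CPM with 5-Ph-IAA and 6.43 ± 0.299 CPM with ethanol went with a fitted fold of 1.08 (log2 0.11, SE 0.17, edgeR adjusted p = 0.999). From cnc-7 there were 7, 3, 0 and 8 reads with 5-Ph-IAA and 2, 6, 3 and 4 reads with ethanol, a ratio of CPM of 1.209 (95% exact counting interval 0.575 to 2.58).

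Summed over the 9 genes, the level was 39.9, 40.8, 34.5 and 49.1 CPM in 5-Ph-IAA replicates 1 to 4, against 30.2, 31.9, 37.1 and 27.2 CPM in ethanol replicates 1 to 4. The 2 groups overlapped only at 5-Ph-IAA replicate 3 and ethanol replicate 3. The means were 41.1 ± 6.06 CPM with 5-Ph-IAA and 31.6 ± 4.16 CPM with ethanol, and without cnc-6 they were 37.6 ± 5.69 and 30.8 ± 3.66 CPM. Within the sum the share of cnc-4 was 33.7% ± 5.67 with 5-Ph-IAA and 32.7% ± 3.58 with ethanol. The share of cnc-3 was 18.9% ± 3.13 with 5-Ph-IAA, all libraries at or below 21.3%, and 27.1% ± 2.76 with ethanol, all at or above 24.2%. That separation is of the share alone, as all CPM values of cnc-3 with 5-Ph-IAA lay inside the range of its ethanol values. It draws on the same cnc-3 reads as the ratios above, and no background over other genes is set beside it. The spread of cnc-3 CPM with 5-Ph-IAA was also below counting error. The share of cnc-6 was 8.26% ± 4.76 with 5-Ph-IAA (3.81% to 14.9%) and 2.38% ± 1.62 with ethanol (0.457% to 4.10%). Its ranges overlapped, as did those of every member other than cnc-3. Since shares add up, a higher share of one gene lowers those of the rest, and they were given no test.

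Levels of different genes were compared as CPM per kb of annotated exon, on the Ensembl lengths and not on those used for counting. With 5-Ph-IAA the order was cnc-4 (32.4 ± 10.4), cnc-2 (20.3 ± 6.35), cnc-10 (18.8 ± 2.45), cnc-3 (17.2 ± 1.197), cnc-6 (7.41 ± 4.40), cnc-1 (2.42 ± 0.885), cnc-7 (1.77 ± 1.39), cnc-11 (1.499 ± 1.519) and cnc-5 (0.281 ± 0.329). In this order the range of cnc-3 over the 4 libraries lay wholly above that of the next gene, cnc-6, and the ranges of all other neighbours overlapped. With ethanol the order was cnc-4 (23.7 ± 3.09), cnc-3 (19.4 ± 4.05), cnc-10 (17.3 ± 0.806), cnc-2 (12.6 ± 2.46), cnc-6 (1.71 ± 1.33), cnc-7 (1.55 ± 0.647), cnc-1 (0.852 ± 0.681), cnc-11 (0.658 ± 0.591) and cnc-5 (0.306 ± 0.613). There the range of cnc-10 lay wholly above that of cnc-2, and the range of cnc-2 above that of cnc-6, while the other neighbours overlapped. The gap between cnc-10 (lowest 16.34) and cnc-2 (highest 16.12) was small. With ethanol cnc-10 varied by 4.65%, below the 13.4% that counting alone gives, so this gap does not measure a separation. The order thus placed cnc-2 the second with 5-Ph-IAA and the fourth with ethanol, although its own groups overlapped.

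The rest of the class did not pass either. The gene cnc-8, on the X chromosome, stood at 19.7 ± 2.64 CPM with 5-Ph-IAA and 23.1 ± 4.49 CPM with ethanol (log2 difference -0.23, SE 0.13, edgeR adjusted p = 0.999, and 0.774 once blocked), and cnc-9 had 0 reads in every library. Within 5 kb of a member lie 7 other protein-coding genes, of which 3 could be tested and none passed. The nearest, R09B5.11, ends 475 bases from cnc-11 and stood at 7.51 ± 1.21 CPM with 5-Ph-IAA and 10.3 ± 2.16 CPM with ethanol (log2 difference -0.44, SE 0.18, edgeR adjusted p = 0.999). Beside cnc-6, tbx-43, a T-box transcription factor gene 505 bases away, stood at a log2 difference of 0.14 (SE 0.27, edgeR adjusted p = 0.999). The gene F53H2.3, 1341 bases from cnc-7, had one of -0.028 (SE 0.086).

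None of the 20 tested genes of the DBL-1 pathway passed, without or with the block. Their log2 fold changes ran from -0.23 to 0.30 with a median of 0.026. The ligand gene dbl-1 stood at 4.66 ± 0.897 CPM with 5-Ph-IAA and 4.55 ± 1.38 CPM with ethanol (log2 0.010, SE 0.23). The receptor gene sma-6 had a log2 fold change of 0.23 (SE 0.13) and the SMAD gene sma-3 one of 0.016 (SE 0.15), each with an edgeR adjusted p of 0.999. These genes and sta-2 were named for their roles after their values were seen. The 2 furthest from 0 were drag-1, a co-receptor gene (1.75 ± 0.584 CPM with 5-Ph-IAA and 1.41 ± 0.437 CPM with ethanol, log2 0.30, SE 0.36), and rnt-1, a Runx transcription factor gene (log2 0.26, SE 0.38). The 2 most abundant were sup-17, an ADAM protease gene (184.5 ± 6.54 CPM with 5-Ph-IAA and 184.5 ± 10.05 CPM with ethanol), and tsp-12, a tetraspanin gene (log2 0.031, SE 0.053).

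Of the 18 genes of epidermal p38 signalling, all tested, none passed in either fit either, with a median log2 fold change of 0.0075. Its end point sta-2 stood at 14.02 ± 0.787 CPM with 5-Ph-IAA and 14.04 ± 3.25 CPM with ethanol (log2 -0.011, SE 0.15). The transporter-like snf-12, which acts with STA-2, had a log2 fold change of 0.28 (SE 0.27) and the receptor gene dcar-1 one of 0.15 (SE 0.10). The abundant rack-1 and akir-1 stood at 0.038 (SE 0.050) and -0.010 (SE 0.051). In the nlp-29 class, 2 of 9 tested genes (nlp-29 and nlp-34) were higher without the block, where 0.0832% of all tested genes were, and 3 with it (nlp-30 as well), where 0.474% were.

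The genes whose pattern over the 8 libraries was most like the summed caenacin level were sought among 12009 others with a mean of at least 1 CPM. Likeness was the mean absolute difference between centred log2 levels, whose median over all compared genes was 0.244. The 5 closest were Y73F4A.2 (0.063), F13D2.1 (0.091), arrd-25 (0.101), maf-1 (0.104) and nas-9 (0.104). Of these, Y73F4A.2 stood at 22.4 ± 2.45 CPM with 5-Ph-IAA and 17.8 ± 3.36 CPM with ethanol (log2 0.34, SE 0.13, edgeR adjusted p = 0.999). None of the 5 passed in either fit. They were picked as the closest of 12009 over the same 8 libraries, so a group difference like that of the sum follows from the choice. Some genes of so many lie close to any pattern, and the likeness was given no test.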

How the data were processed

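The files hold raw counts of reads per WormBase gene, deposited by the authors with each library in its own file. The submitters' processing notes name FastQC 0.11.5, TopHat2, HTSeq and DESeq2 without giving their roles; build, annotation and strand setting: not given in the sources used here. Lines that name no gene were left out. Between 47.74% and 48.06% of each file's counts were assigned to no gene. Without the strand setting, these reads cannot be said to lie outside genes. Between 4.14% and 4.55% came from reads with several alignments, so near-identical stretches of caenacin genes may be undercounted. Symbols, coordinates and exon lengths come from Ensembl release 115 (WBcel235), which held 46484 of the 46739 identifiers. No sequence was used here.

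Genes passing filterByExpr (12021) were fitted with edgeR 4.0.16 in R 4.3.3 (TMM factors 0.986 to 1.02, robust quasi-likelihood test, two-sided, Benjamini-Hochberg adjustment over all tested genes, threshold 0.05). The SE is the absolute log2 fold change over the square root of the F statistic. The script was tested on simulated data. DESeq2 1.42.0, other scalings and filters, a replicate block and left-out libraries were the alternatives. Library deviations correlated between equal replicate numbers at 0.100 to 0.147 and between unequal ones at -0.099 to 0.010, so the numbers were taken to pair the libraries by the bar of 0.1, narrowly met. Replicates differed by more than sampling noise (lowest chi-square per degree of freedom 2.46). Whether replicates were separate cultures is not stated, so the spread behind the p-values may be technical. All 9 members are named; of each list, genes past the threshold, else the 2 furthest from 0 and the 2 most abundant. Members and lists were chosen with earlier results of these data known.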

Additional observations from a re-analysis of the deposited data

Results flagged for a closer look

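For cnc-5, ethanol replicate 3 stood apart from its group, at 0.254 CPM where the other 3 ethanol libraries had 0 reads. It is 2 reads, fewer than the 3 that a library without a read allows. This was the 1 flag among 20 groups of 4 libraries examined, and chance flags about 1 in 20.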

How the results depend on the processing

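The number of caenacin genes past the threshold, 0 without the block, was 1 (cnc-6) with the replicate block, with DESeq2, with DESeq2 and the block, with no filter on low counts (edgeR adjusted p = 1.34e-05), and with the block and no filter, an alternative chosen after seeing the data (3.88e-06). It was 0 with RLE or upper quartile factors, with the stricter filter and without any 1 library. Leaving out 1 pair with the block gave 0 (without pair 2) to 2 (cnc-2 and cnc-6, without pair 3). Over all tested genes 12 passed, against 88 with the block, 29 with DESeq2, 24 with DESeq2 and the block, 62 with no filter and 118 with the block and no filter. Leaving out 1 library gave 6 to 19, and leaving out pair 1, 2, 3 or 4 with the block 82, 51, 78 or 92. No direction of the 5 tested members reversed in the 20 alternatives run, and the cause of the changed calls was not tested. Depth limits cnc-1, cnc-5, cnc-7 and cnc-11, with at most 16 reads in a library.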
